A study of Oryza sativa with 12 samples.

Results

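The response of wild-type rice roots to salt was examined in cultivar TNG67 (Tainung 67, a japonica rice), by comparing 3 libraries from roots kept for 24 h at 150 mM NaCl with 3 libraries from roots kept at 0 mM NaCl. Genes were taken where both NaCl levels listed them, which gave 24922 of 26611 genes, and their functions were read from the description that stands beside each gene ID. A further 658 genes were listed at 0 mM NaCl only and 1031 at 150 mM NaCl only, and these were not tested. The series holds 12 mRNA-seq libraries from 7-day-old seedlings, made to ask how overexpression of the transcription factor gene OsERF106MZ alters roots under normal and salt conditions. TNG67 carries no transgene, and the other 6 libraries come from OE1, a single 35Sp::OsERF106MZ line in the TNG67 background, which here served for the shared estimate of spread and for a test of whether its response differed. According to the study's methods each replicate pooled the belowground parts of several seedlings and the replicates were biological, so a replicate is a pool and not a plant. Seedlings of both groups were moved to basal medium for those 24 h, so the transfer is shared.

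Salt reaches a root as an osmotic stress, which lowers the water potential outside the cell, and as an ionic stress, in which sodium enters and competes with potassium. Roots are known to respond through abscisic acid (ABA), a hormone that induces dehydration-protective proteins and slows root growth, through transporters that keep sodium out of the shoot, and through changes in water channels and in the cell wall. In rice, many stresses also induce diterpenoid phytoalexins, antimicrobial compounds built from geranylgeranyl diphosphate by copalyl diphosphate synthases, kaurene synthase-like cyclases and cytochromes P450.

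Values are normalized counts, that is reads on a gene divided by the size factor of its library, and they are not corrected for transcript length, so they compare a gene with itself and not 1 gene with another. The TNG67 libraries held 16473262 to 17303572 reads on listed genes at 0 mM NaCl and 19518816 to 21933617 at 150 mM NaCl. The 6 libraries separated by NaCl level on the first principal component, which carried 88.49% of the variance of log2 values. On the second (3.68%), replicates 2 and 3 at 150 mM NaCl lay at opposite ends, at -23.83 and 24.16. The tissue is labelled as roots, and the study's methods speak of belowground parts, but the record's design text names terrestrial parts. Root markers (RCc3 and RCc2 proteins, silicon transporters and others, 12 tested) had a summed level of 62577 to 73616 at 0 mM NaCl and 17945 to 20796 at 150 mM NaCl. The silicon transporters Lsi1 and Lsi2 had 15325 to 20120 and 17031 to 23926 at 0 mM NaCl. The fall of this sum thus includes the fall given for them below. Markers of photosynthetic green tissue (39 tested) were also read, with a summed level of 17457 to 24991 at 0 mM NaCl and 1947 to 2175 at 150 mM NaCl. Of these green-tissue markers 29 were lowered and 2 raised, and of the root markers 7 were lowered and 1 raised. Every marker tested was read in at least 1 library, both sums moved with the NaCl level without overlap between groups, and their part in the results that follow was not tested. In bulk roots, fewer cells of a type and less RNA per cell cannot be told apart.

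Genes were called where limma gave an adjusted p (Benjamini-Hochberg) under 0.05 together with more than a doubling or halving, that is beyond 1 on the log2 scale. By this rule 2375 genes (9.53% of those tested) were raised by NaCl and 2429 (9.75%) were lowered, while the median log2 fold change over all genes was 0. The size factors centre the typical gene near no change, so that median is not a result of the comparison. The balance in number depends on the same scaling. With it, the called genes were close to balanced in number and changed slightly more on the rising side. Of the raised genes 816 rose more than 4-fold and 94 more than 16-fold, against 645 and 77 of the lowered genes. The median log2 fold change was 1.65 among raised genes and -1.49 among lowered genes. Values of the 2 groups did not overlap in 4735 of the 4804 called genes, beside 15155 of all 24922 genes tested. The calling rule itself favours genes whose groups lie apart, so the share among called genes is not separate evidence for the calls. With the fold change itself tested against a doubling (limma treat), the counts were 1212 raised and 968 lowered. For a single gene, an exact permutation test of 3 against 3 libraries cannot go below p = 0.1, so single genes rest on the fit across all genes.

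**Figure D1:**
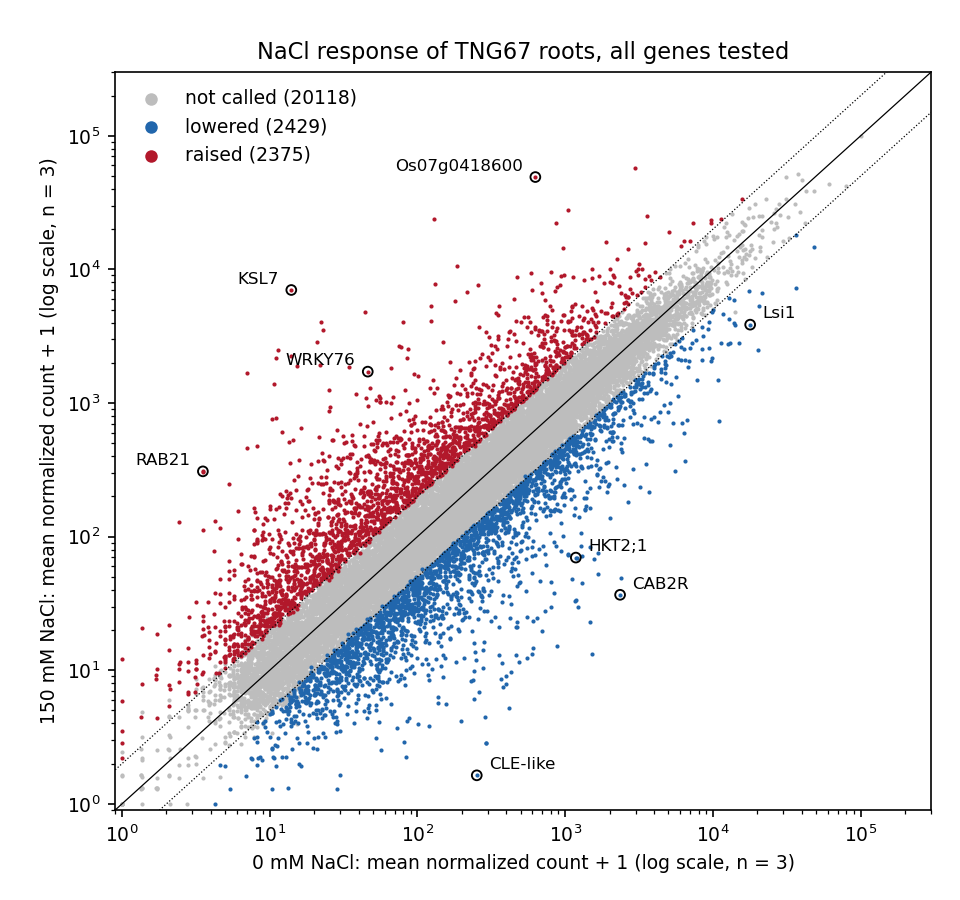
Mean normalized count plus 1 of each of 24922 genes in TNG67 roots at 0 mM NaCl (x axis, n = 3) and 150 mM NaCl (y axis, n = 3), both on log scales, with raised genes in red, lowered genes in blue and the rest in grey. Dotted lines mark a doubling in either direction, and circled genes such as KSL7 (13.0 against 7010) and the CLE-like Os06g0532500 (251 against 0.636) lie farthest from the diagonal.

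Among well-measured genes with an informative description, the largest rise belonged to Os02g0570400, which encodes the diterpene cyclase KSL7. It stood at 12.3, 21.2 and 5.36 normalized counts at 0 mM NaCl and at 5464, 10217 and 5348 at 150 mM NaCl. The lowest salt-treated library was thus far above the highest untreated one, for a log2 fold change of 9.08 (SE 0.70, limma adjusted p = 4.98e-06). A gene similar to sugar transporters, Os03g0197100, went from 2.24, 11.7 and 4.29 to 1639, 1691 and 1720, with a log2 fold change of 8.13 (SE 0.37). A 2-oxoglutarate-dependent oxygenase, Os04g0581100, rose from a mean of 10.4 to 2496, and a CYP72A5-like cytochrome P450, Os01g0627800, from 11.2, 7.42 and 11.8 to 1685, 2283 and 2596. The von Willebrand factor A domain gene Os11g0687100 (log2 fold change 7.41) and the methyltransferase-like Os04g0104900 (7.10) followed. Of the 10 largest rises, 4 were diterpenoid genes by description or symbol.

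At the other end stood Os06g0532500, described as a CLE-domain protein for meristem maintenance, CLE proteins being small peptide signals. Its values were 237, 255 and 261 at 0 mM NaCl and 0, 0 and 1.91 at 150 mM NaCl, so it was close to unread in every salt-treated library (log2 fold change -7.46, SE 0.37). Os03g0836800, similar to IAA-amino acid hydrolases that free auxin from its stored conjugates, fell from 1354, 1288 and 1884 to 15.3, 10.7 and 10.5 (log2 fold change -6.84, SE 0.21, limma adjusted p = 3.1e-14). A gene annotated as similar to a salt stress-induced protein, Os01g0355250, fell from 340, 258 and 270 to 1.71, 1.95 and 1.91. Among the 10 largest falls 6 encode parts of the photosynthetic apparatus, among them the Rubisco small subunit RBCS1 (Os12g0291100, log2 fold change -7.05), ferredoxin (Os08g0104600, -6.10) and the light-harvesting protein gene CAB2R (Os01g0600900). CAB2R stood at 2187, 2251 and 2615 at 0 mM NaCl and at 36.7, 29.3 and 41.0 at 150 mM NaCl. An RCc3-like gene, Os04g0554600, completed the group, with 374, 310 and 509 against 4.26, 2.93 and 13.4.

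The shares called in 50 gene lists, set by words in the descriptions, are to be read against the 9.53% raised and 9.75% lowered among all genes. Lists in which at least 1 in 3 members rose were the diterpenoid and terpene genes (63.2%), wall-associated kinases (46.2%), late embryogenesis abundant (LEA) proteins and dehydrins (43.8%), WRKY factors (36.2%), chitinases and pathogenesis-related proteins (36.2%), NAC factors (34.8%), heat shock factors (33.3%) and glutathione S-transferases (33.3%). Those in which at least 1 in 3 fell were aquaporins (58.8%), jacalin-type and salt-induced proteins (42.9%), class III peroxidases (39.4%), lipid transfer proteins (37.5%), cellulose synthases (37.0%), core histones (34.9%) and tubulins (33.3%). Circadian clock genes (14 tested) held no member called by limma, edgeR, DESeq2 or limma-voom, although 5 lay above 0 and 5 below 0 at an unadjusted limma p under 0.05.

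**Figure D2:**
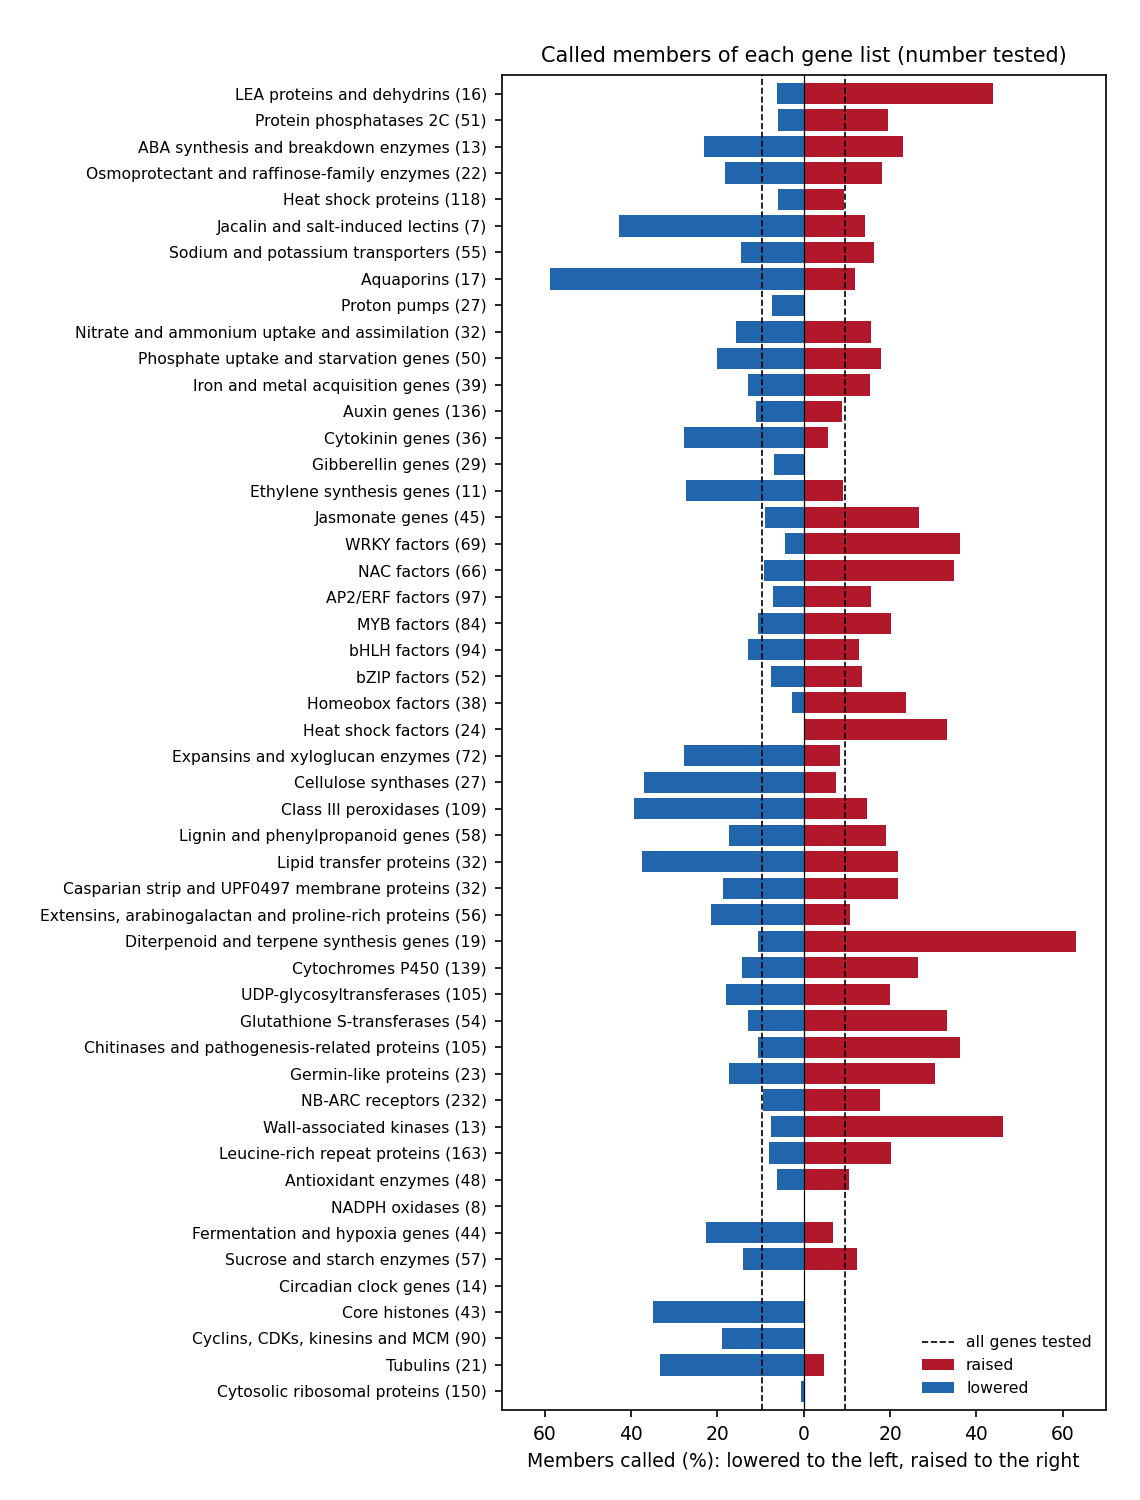
Percent of tested members called lowered (blue, to the left) and raised (red, to the right) by 150 mM NaCl in 50 gene lists, with the number tested in brackets. Dashed lines mark the shares among all 24922 genes, 9.75% lowered and 9.53% raised, and the longest bars belong to diterpenoid genes (63.2% raised) and aquaporins (58.8% lowered).

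Dehydration proteins rose in part. Of 16 LEA and dehydrin genes tested 7 were raised and 1 was lowered, with a median log2 fold change of 0.25 beside 0 for all genes. RAB21 (Os11g0454300), a dehydrin known as a target of ABA, stood at 2.24, 0 and 5.36 normalized counts at 0 mM NaCl and at 322, 219 and 381 at 150 mM NaCl, a log2 fold change of 6.78 (SE 0.64). Its neighbour by ID, RAB16D (Os11g0453900), went from 15.7, 35.0 and 21.5 to 970, 658 and 966 (log2 fold change 5.16, SE 0.41). Both genes were far apart between groups, with the lowest salt-treated library of RAB16D more than 10-fold above the highest untreated one. LEA19 (Os05g0542500, also called LEA3), chosen after its values were seen, went from 143, 163 and 189 to 2013, 2056 and 2059. The dehydrin with the most reads, Os02g0669100, had 6259, 6153 and 6889 at 0 mM NaCl and 5152, 4871 and 5154 at 150 mM NaCl, a log2 fold change of -0.35 that did not reach the threshold. The lowered count was 2 without 150 mM NaCl replicate 3. Of the 16, Os05g0341600 was matched through the name Rab-21 but is described as a Ras-related protein.

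A further 9 LEA and dehydrin genes were listed at 150 mM NaCl only and none at 0 mM NaCl only. The largest of these were an LEA repeat gene, Os03g0168100, with 224, 207 and 249 normalized counts in the salt-treated libraries, the dehydrin DHN1-like Os11g0451700 with 135, 146 and 142, and RAB16C (Os11g0454000) with 69.9, 64.5 and 97.3. RAB21, RAB16D, RAB16C and the DHN1-like gene form a group of 4 genes with IDs from Os11g0451700 to Os11g0454300 on chromosome 11. No fold change can be given for a gene that the 0 mM NaCl table did not list, and these genes add nothing to the counts above.

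Genes of ABA metabolism and signalling moved in both directions. Of 13 ABA synthesis and breakdown enzymes 3 were raised and 3 lowered. The study places the dioxygenase NCED at the first committed step of ABA synthesis. No tested gene carried that name in its description, symbol or synonyms, so no values are given for it. Zeaxanthin epoxidase (Os04g0448900), which acts early in ABA synthesis, rose from 483, 421 and 515 to 1079, 1017 and 975 (log2 fold change 1.12, SE 0.08). Aldehyde oxidases catalyse the last step of ABA synthesis in plants, and the one with the most reads, Os03g0790900, went from 4989, 5193 and 5745 to 7574, 9276 and 7663, a log2 fold change of 0.62 below the threshold. Os07g0281700, the gene that the study calls OsAO3, had 36.9, 26.5 and 50.4 at 0 mM NaCl and 18.8, 19.5 and 3.82 at 150 mM NaCl (log2 fold change -1.59, SE 0.45, limma adjusted p = 0.0056). That fall leaned on 1 library, since without replicate 3 at 150 mM NaCl its log2 fold change was -0.90 and the call was lost. The adjacent Os07g0281800 (log2 fold change -1.17) also lost its call without 0 mM NaCl replicate 3 (-0.80) or 150 mM NaCl replicate 3 (-0.95), and without the latter library 1 of the 13 enzymes was lowered instead of 3. Protein phosphatases 2C, some of which are brakes on ABA signalling that ABA itself induces, had 10 raised and 3 lowered of 51. PP2C68 (Os09g0325700) rose from 20.1, 18.0 and 13.9 to 200, 156 and 200, and Os06g0698300 from a mean of 51.5 to 236.

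A pair of proline-rich glycoprotein genes, described as acting in ABA-dependent inhibition of root growth, rose to high read numbers. Os07g0418600 stood at 670, 699 and 513 normalized counts at 0 mM NaCl and at 49702, 47840 and 49722 at 150 mM NaCl (log2 fold change 6.30, SE 0.19). Its neighbour by ID, Os07g0418700, went from 116, 163 and 104 to 25956, 21222 and 24289 (log2 fold change 7.55, SE 0.19, limma adjusted p = 2.54e-10). The salt-treated libraries were tightly grouped and lay more than 60-fold above every untreated one in both genes. How the authors' counting shared reads between such neighbouring genes of like sequence is not given in the sources used here.

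Enzymes of compatible solutes moved both ways. Of 22 osmoprotectant and raffinose-family genes 4 were raised and 4 lowered (18.2% each). P5CS1 (Os05g0455500), the enzyme that commits glutamate to proline synthesis, had 3486, 3530 and 3515 at 0 mM NaCl and 4028, 4101 and 3758 at 150 mM NaCl, a log2 fold change of 0.17 (SE 0.06), and the related P5CS2 (Os01g0848200) was at 0.32 with overlapping groups. Betaine aldehyde dehydrogenase BADH2 (Os08g0424500) was at 0.22. Trehalose-6-phosphate phosphatase TPP3 (Os07g0624600) rose from 19.0, 12.7 and 24.7 to 170, 90.8 and 140 (log2 fold change 2.76, SE 0.26), and a galactinol synthase (Os03g0316200), which starts raffinose synthesis, from 143, 135 and 152 to 421, 540 and 426. The salt-induced lectin salT (Os01g0348900), a mannose-binding jacalin-type protein, rose from 7032, 10276 and 11973 to 22138, 24587 and 23200 (log2 fold change 1.29, SE 0.20), while 3 of the other 6 members of its list fell. Heat shock proteins stayed near the background, with 11 raised and 7 lowered of 118, and 7 raised without 0 mM NaCl replicate 1 or 4 lowered without 150 mM NaCl replicate 2.

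Sodium and potassium transporters split. Of 55 tested 9 were raised and 8 lowered, while the 5 HKT genes tested, a family of sodium and sodium-potassium transporters, were all lowered. HKT1;5 and HKT1;4 belong to the 55, whereas the other 3 carry the description ion transporter and stand outside the list. HKT2;1 (Os06g0701700), known for sodium uptake by potassium-starved rice roots, fell from 1010, 1070 and 1458 to 75.9, 56.6 and 73.5 (log2 fold change -4.07, SE 0.30, limma adjusted p = 6.62e-07). HKT1;5 (Os01g0307500), which retrieves sodium from the xylem sap and so keeps it from the shoot, fell from 306, 243 and 340 to 25.6, 28.3 and 25.8 (log2 fold change -3.42, SE 0.20). Neither gene had a salt-treated library within 4-fold of an untreated one. HKT1;4 (Os04g0607600) fell from a mean of 26.2 to 3.93. HKT1;1 (Os04g0607500) and HKT1;3 (Os02g0175000) had few reads and were less firm, at -1.43 and -1.24. The groups of HKT1;1 overlapped, and its call was lost without 0 mM NaCl replicate 1 (limma adjusted p = 0.0652) or without 150 mM NaCl replicate 1 (0.0905) or 3 (0.0512). The call of HKT1;3 was lost without 0 mM NaCl replicate 2 (limma adjusted p = 0.0933) or 150 mM NaCl replicate 3 (0.0839).

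On the potassium side, a gene similar to high-affinity potassium transporters (Os09g0448200) rose from 8.95, 11.7 and 17.2 to 411, 732 and 375 (log2 fold change 5.20, SE 0.32). A SKOR-like channel (Os04g0445000), SKOR being the channel that releases potassium into the xylem in Arabidopsis, fell from 478, 526 and 446 to 46.0, 51.8 and 34.3 (log2 fold change -3.44, SE 0.16). The inward potassium channel AKT1 (Os01g0648000), chosen after its values were seen, went from 39.2, 47.7 and 84.7 to 10.2, 14.6 and 11.4. The Na+/H+ antiporter with the most reads, Os12g0641100, had 5688, 6154 and 5769 at 0 mM NaCl and 4764, 4682 and 4284 at 150 mM NaCl, a log2 fold change of -0.36, and the vacuolar antiporter Os07g0666900, also chosen after its values were seen, had 317, 333 and 317 against 290, 240 and 280. A cation/H+ exchanger-like gene, Os05g0382200, chosen in the same way, rose from 6.72, 7.42 and 6.44 to 55.4, 113 and 91.6 (log2 fold change 3.42). Proton pumps, which power such antiporters, had 2 lowered and none raised of 27 by limma, edgeR, DESeq2 or limma-voom, with 1 above 0 at an unadjusted limma p under 0.05 where none was raised. The plasma membrane pump with the most reads, Os04g0656100, had a log2 fold change of -0.48, and the vacuolar pyrophosphatase Os06g0178900 fell from 2135, 2195 and 2271 to 1080, 886 and 1110.

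Water channels were the list with the largest share lowered. Of 17 aquaporins 10 were lowered and 2 raised (1 raised without 150 mM NaCl replicate 2), with a median log2 fold change of -1.39, and the summed level of the list went from 135322 to 149763 at 0 mM NaCl down to 56635 to 60128 at 150 mM NaCl. Tonoplast intrinsic proteins carry water across the vacuolar membrane. Among them a TIP2-type gene, Os02g0658100, went from 11788, 11624 and 9737 to 665, 651 and 872 (log2 fold change -3.93, SE 0.10, limma adjusted p = 2.26e-13), and TIP2-3 (Os04g0550900) from 240, 296 and 295 to 11.9, 5.86 and 10.5. Both raised aquaporins are also described as tonoplast proteins. Os05g0231700 rose from 409, 470 and 438 to 905, 819 and 1093 (log2 fold change 1.09, and 0.97 without 150 mM NaCl replicate 3). Os05g0231600 had few reads and overlapping groups (log2 fold change 1.29), and its call was lost under edgeR (adjusted p = 0.0754) and without 0 mM NaCl replicate 1 (0.86) or 3 (1.14) or 150 mM NaCl replicate 1 (1.15) or 2 (1.18). Both were chosen after their values were seen. The plasma membrane aquaporin with the most reads, PIP1-1 (Os02g0666200), went from 37869, 36185 and 35879 to 18618, 16313 and 19144, so that each salt-treated library held close to 1 in 2 of the untreated reads. Its log2 fold change of -1.03 lay at the threshold and was -0.96 without 150 mM NaCl replicate 2.

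Silicon transporters fell together. Lsi1 (Os02g0745100), an aquaporin-family channel that takes up silicic acid, stood at 18125, 20120 and 15325 at 0 mM NaCl and at 3626, 4373 and 3571 at 150 mM NaCl (log2 fold change -2.21, SE 0.10). Its partner Lsi2 (Os03g0107300), which exports silicon towards the stele, fell from 20775, 23926 and 17031 to 5111, 6167 and 4758 (log2 fold change -1.94, SE 0.12). In both genes replicate 2 was the highest library of each group and replicate 3 the lowest. Lsi6 (Os06g0228200) fell from 1856, 1897 and 1684 to 266, 200 and 372.

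**Figure D3:**
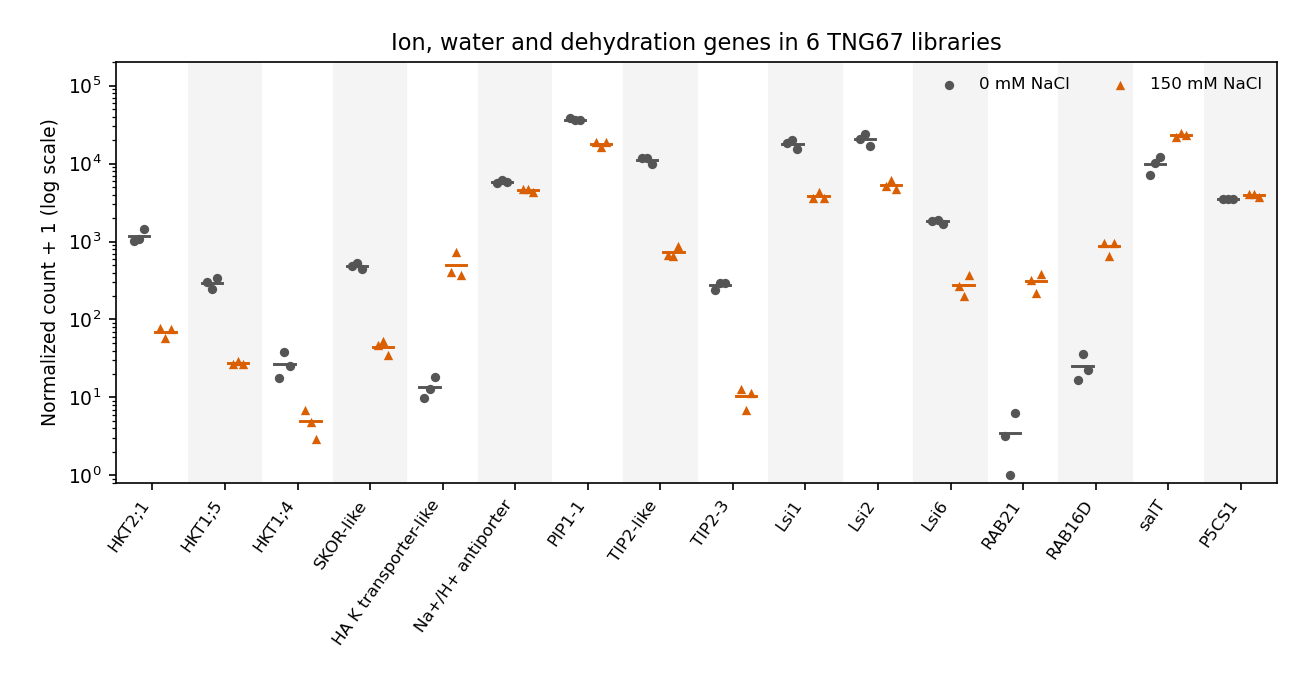
Normalized count plus 1 (log scale) of 16 genes in each TNG67 library at 0 mM NaCl (grey circles, n = 3) and 150 mM NaCl (orange triangles, n = 3), with horizontal lines at the group means. HKT, SKOR-like, water channel and silicon transporter genes sit lower with NaCl, RAB21 and RAB16D sit higher, and the Na+/H+ antiporter (log2 fold change -0.36) and P5CS1 (0.17) lie near their untreated levels.

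Nutrient genes moved both ways. Of 32 nitrate and ammonium genes 5 were raised and 5 lowered, of 50 phosphate genes 9 and 10, and of 39 iron and metal genes 6 and 5. A high-affinity nitrate transporter (Os02g0112600) fell from 323, 285 and 393 to 21.3, 23.4 and 27.7, and the chloroplastic glutamine synthetase GS2 (Os04g0659100) from 3452, 3061 and 3322 to 568, 722 and 764. The cytosolic glutamine synthetase with the most reads (Os03g0223400), which assimilates ammonium, had 42462, 41875 and 41326 against 19294, 27129 and 20435, a log2 fold change of -0.93 that passed the threshold only without 150 mM NaCl replicate 2 (-1.08). A pair of SPX-MFS phosphate transporters went apart, with Os04g0573000 rising from 5.60, 7.42 and 8.58 to 81.9, 128 and 75.4 and Os02g0678200 falling from 180, 180 and 179 to 34.1, 41.0 and 29.6. Zinc transporters did the same. Os07g0232800, similar to ZIP1, rose from a mean of 53.3 to 568 and the gene with the symbol ZIP1, Os01g0972200, fell from 963 to 205.

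Diterpenoid phytoalexin genes were the list with the largest share raised. Of 19 tested 12 were raised and 2 lowered, with a median log2 fold change of 2.65, and their summed level went from 6857 to 8187 at 0 mM NaCl up to 49625 to 78076 at 150 mM NaCl. The lowered count was 1 without 0 mM NaCl replicate 2 or 3 or without 150 mM NaCl replicate 1 or 3. Genes of momilactone synthesis lie close together by ID on chromosome 4. CPS4 (Os04g0178300), which makes the syn-copalyl diphosphate precursor, rose from 961, 1114 and 1041 to 24953, 36816 and 21387 (log2 fold change 4.70, SE 0.50). CYP99A3 (Os04g0178400), a cytochrome P450 of the same pathway, rose from 820, 968 and 1090 to 12333, 20489 and 10301, and the cyclase KSL4 (Os04g0179700) from 8.95, 15.9 and 13.9 to 2059, 2809 and 1815 (log2 fold change 7.33, SE 0.86). Replicate 2 was the highest salt-treated library in all of these, and the groups stayed more than 9-fold apart.

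Diterpenoid genes elsewhere in the genome rose as well. The P450 gene Os02g0569900, close to KSL7 by ID, rose from 36.9, 39.2 and 53.6 to 3758, 6238 and 4310 (log2 fold change 6.74, SE 0.39). KSL10 (Os12g0491800), chosen after its values were seen, rose from 8.95, 9.54 and 10.7 to 1153, 2146 and 867. The ent-kaurene oxidase-like CYP701A8 (Os06g0569500) went from 13.4, 30.7 and 21.5 to 3146, 4211 and 3170, and a P450 described for phytoalexin synthesis (Os07g0217600) from 12.3, 12.7 and 18.2 to 1696, 2309 and 1692. CPS2 (Os02g0571100), which supplies ent-copalyl diphosphate for defence, was listed at 150 mM NaCl only, with 1161, 2385 and 1292 normalized counts, the most of any gene listed at that level alone.

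TGAL6 (Os04g0637000), a bZIP factor described as regulating phytoalexin production, rose from 2471, 2798 and 2754 to 5912, 5138 and 5486, a log2 fold change of 1.04 that was 0.99 without replicate 1 of either group. The bHLH diterpenoid phytoalexin factor Os01g0196300 rose from 197, 173 and 208 to 735, 791 and 723. The 2 lowered members of the list were a limonene synthase, Os04g0340300, which makes a monoterpene and fell from 1305, 1378 and 2289 to 68.2, 68.4 and 84.9, and a sesquiterpene cyclase-like gene, Os02g0458100, which went from a mean of 94.1 to 46.5 (SD 8.1 and 8.78, n = 3), at the threshold with a log2 fold change of -1.01 that was -0.99 to -0.93, and no longer called, without 0 mM NaCl replicate 2 or 3 or 150 mM NaCl replicate 1 or 3. Os01g0196300, Os04g0340300 and Os02g0458100 were chosen after their values were seen.

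Genes annotated for pathogen defence rose in larger shares than they fell. Of 105 chitinases and pathogenesis-related proteins 38 were raised and 11 lowered, and the summed level of the list went from 110018 to 118034 up to 274457 to 352598. The words that set this list also match ERF-domain transcription factors described as pathogenesis-related, which were not taken out. Os04g0547600 and Os05g0437100, listed at 150 mM NaCl only, thus stand in both this list and the AP2/ERF list. PBZ1 (Os12g0555500), a ribonuclease of the PR-10 class, stood at 197, 163 and 190 normalized counts at 0 mM NaCl and at 7852, 16164 and 8052 at 150 mM NaCl (log2 fold change 5.78, SE 0.90, limma adjusted p = 0.000598). Its 150 mM NaCl replicate 2 was again about double the others. A PRB1-2-like gene (Os01g0382000) rose from 14.5, 26.5 and 21.5 to 1399, 2523 and 1880, while the PR-1a-like gene with the most reads (Os10g0191300) went from 31487, 32302 and 29582 to 45080, 49200 and 52489, a log2 fold change of 0.65. NB-ARC receptors, the intracellular immune sensors, had 41 raised and 22 lowered of 232, leucine-rich repeat proteins 33 and 13 of 163, and wall-associated kinases 6 and 1 of 13. The NB-ARC gene Os12g0237900 rose from 11.2, 8.48 and 10.7 to 692, 896 and 713.

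Germin-like proteins, of which 7 were raised and 4 lowered of 23, differed within 1 gene cluster. Germin-like protein 8-4 (Os08g0189300) fell from 5604, 6424 and 3962 to 660, 814 and 656, and 8-3 (Os08g0189200) from 10927, 12948 and 11224 to 4612, 5460 and 3766. Germin-like protein 8-6 (Os08g0189500), with an ID close to these, rose from 181, 199 and 212 to 1493, 1483 and 1129. Such close copies can share reads, and how these were assigned is not given in the sources used here.

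Detoxification families differed. Glutathione S-transferases had 18 raised and 7 lowered of 54, cytochromes P450 37 and 20 of 139, and UDP-glycosyltransferases a near equal 21 and 19 of 105. Through its description the last list also holds the sucrose synthase SUS1 (Os03g0401300, lowered), which is counted again among the sucrose and starch genes. A glutathione S-transferase (Os01g0692100) rose from 8.95, 6.36 and 18.2 to 159, 225 and 217, and a glycosyltransferase (Os09g0518200) from 22.4, 29.7 and 23.6 to 582, 500 and 505. The glutathione S-transferase Os01g0371500 fell from a mean of 1633 to 287.

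**Figure D4:**
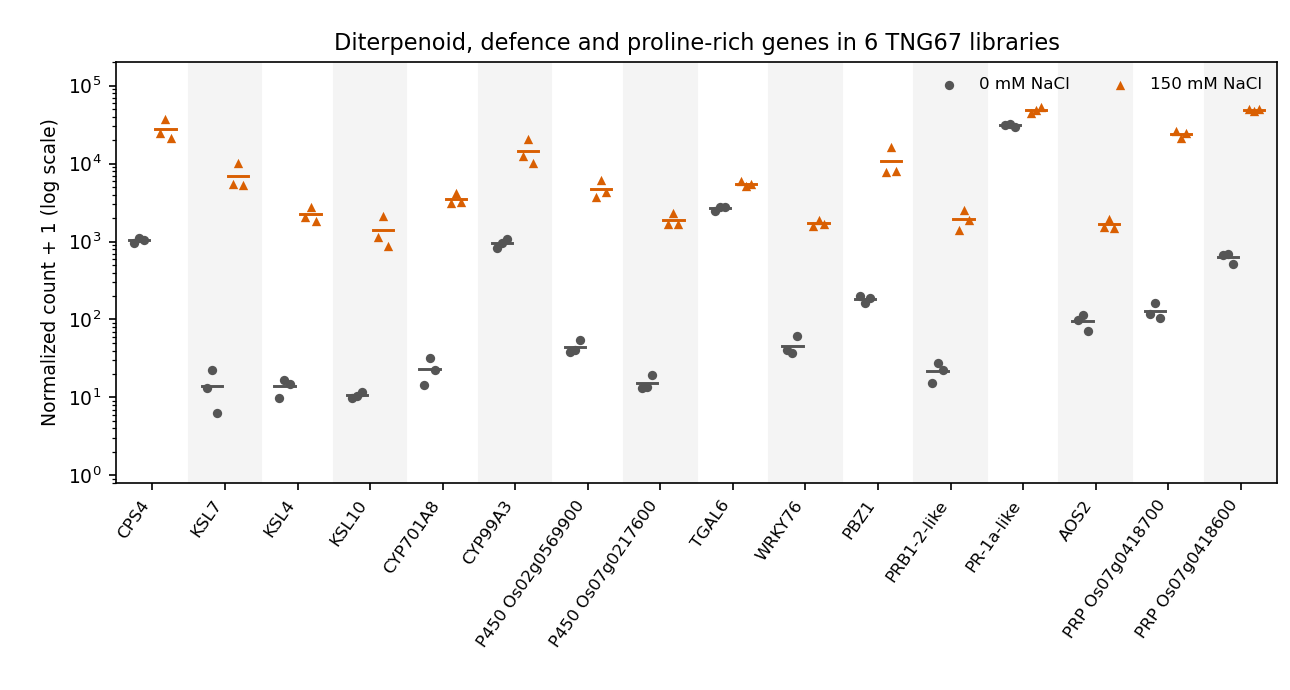
Normalized count plus 1 (log scale) of 16 diterpenoid, defence, jasmonate and proline-rich protein (PRP) genes in each TNG67 library at 0 mM NaCl (grey circles, n = 3) and 150 mM NaCl (orange triangles, n = 3), with lines at the group means. The groups do not overlap in any of the 16 genes, which the naming rule itself asked of many of them. Groups were apart in 15155 of all 24922 genes tested. The PR-1a-like gene (log2 fold change 0.65) is the closest pair.

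Among the other hormones, jasmonate genes were more often raised than lowered and cytokinin genes more often lowered than raised. Of 45 jasmonate genes 12 were raised and 4 lowered (2 lowered without 150 mM NaCl replicate 2), with a median log2 fold change of 0.43. Allene oxide synthase AOS2 (Os03g0225900), which commits lipid peroxides to jasmonate, rose from 98.5, 113 and 70.8 to 1530, 1934 and 1499 (log2 fold change 4.14, SE 0.28), and a chloroplast lipoxygenase (Os08g0508800), the step before it, from 26.9, 18.0 and 19.3 to 239, 379 and 214. JAZ7 (Os07g0615200), a repressor of jasmonate signalling and the list's member with the most reads, went from 4414, 4205 and 4422 to 8948, 8512 and 8698. Its log2 fold change of 1.00 lay at the threshold, and it was 0.97 to 0.99 with library size scaling, edgeR, limma-voom, or without 0 mM NaCl replicate 2 or 150 mM NaCl replicate 1.

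Of 36 cytokinin genes 10 were lowered and 2 raised (1 raised without 150 mM NaCl replicate 3). The A-type response regulator OsRR2 (Os02g0557800), a gene that cytokinin induces, fell from 1558, 1507 and 1549 to 364, 544 and 388 (log2 fold change -1.85, SE 0.11, limma adjusted p = 4.07e-10), and a cytokinin dehydrogenase (Os01g0187600), which degrades the hormone, from 191, 198 and 157 to 37.5, 72.3 and 63.0. The B-type regulator with the most reads in the list, Os03g0224200, had a log2 fold change of 0.11. Of 11 ethylene synthesis genes 3 were lowered and 1 raised. A further 2, both ACC oxidases, were listed at 150 mM NaCl only and were not tested (Os09g0451000 with 35.0, 17.6 and 42.9, Os09g0451400 with 15.3, 11.7 and 19.1). An ACC synthase (Os01g0192900), the committed step, fell from 300, 255 and 254 to 17.9, 54.7 and 34.3, and the ACC oxidase with the most reads (Os11g0186900) from 2511, 2293 and 2383 to 890, 1311 and 860. Auxin genes (12 raised and 15 lowered of 136) lay near the background shares, although the auxin efflux carrier PIN5A (Os01g0919800) fell from 114, 105 and 117 to 12.8, 19.5 and 13.4. Gibberellin genes had 2 lowered of 29 and none raised by limma, edgeR, DESeq2 or limma-voom, although 7 lay above 0 at an unadjusted limma p under 0.05. The lowered count was 1 without 150 mM NaCl replicate 1 and 4 without 0 mM NaCl replicate 2 or 150 mM NaCl replicate 3, and 1 was raised without 0 mM NaCl replicate 3 or 150 mM NaCl replicate 1.

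Among transcription factors, the WRKY and NAC families moved most. WRKY factors, widely known from pathogen responses, had 25 raised and 3 lowered of 69 (1 lowered without replicate 1 of either group) and a median log2 fold change of 0.64. WRKY76 (Os09g0417600), a transcriptional repressor, stood at 39.2, 36.0 and 60.1 normalized counts at 0 mM NaCl and at 1583, 1866 and 1698 at 150 mM NaCl (log2 fold change 5.25, SE 0.24, limma adjusted p = 2.62e-11). The WRKY gene with the most reads, Os05g0322900, described as inducible by benzothiadiazole for blast resistance, rose from 524, 497 and 552 to 4347, 4234 and 4647. Another 8 WRKY genes were listed at 150 mM NaCl only and 1 at 0 mM NaCl only. NAC factors had 23 raised and 6 lowered of 66 and a median of 0.47. A gene similar to ANAC019, an ABA-responsive NAC factor of Arabidopsis (Os03g0777000), rose from 5.60, 12.7 and 8.58 to 161, 173 and 170, whereas the NAC gene with the most reads (Os05g0426200) had a log2 fold change of 0.26.

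Heat shock factors had 8 raised of 24, with a median of 0.39, and none lowered by limma, edgeR, DESeq2 or limma-voom, with 5 below 0 at an unadjusted limma p under 0.05. An A-2a type factor (Os03g0745000) rose from 135, 124 and 177 to 596, 806 and 777, and HSFA6B (Os01g0571300) from 16.8, 26.5 and 18.2 to 111, 84.0 and 116. Homeobox factors had 9 raised and 1 lowered of 38 (2 lowered without 150 mM NaCl replicate 2). WOX11 (Os07g0684900), which promotes crown root development, rose from 47.0, 44.5 and 49.3 to 376, 331 and 395 (log2 fold change 2.94, SE 0.14), and WOX6 (Os03g0325600) from 125, 130 and 133 to 725, 581 and 750. MYB factors had 17 raised and 9 lowered of 84. AP2/ERF factors had 15 raised and 7 lowered of 97, bHLH factors 12 and 12 of 94 and bZIP factors 7 and 4 of 52. The drought-related bHLH148 (Os03g0741100) rose from 123, 127 and 112 to 648, 647 and 776. Of these families, the AP2/ERF count depended on genes with few reads, since 9 were raised among genes with a mean of at least 20.

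In most cell wall lists more members were lowered than raised. Class III peroxidases, secreted enzymes that stiffen walls and handle hydrogen peroxide, had 43 lowered and 16 raised of 109 and a median log2 fold change of -0.60. The largest changes in this family among well-measured members were rises, since Os01g0327100 rose from 47.0, 51.9 and 37.5 to 886, 1021 and 937 and Os01g0963000 from 60.4, 44.5 and 60.1 to 950, 963 and 1154. Expansins and xyloglucan enzymes, which loosen and remodel walls, had 20 lowered and 6 raised of 72. XTH8 (Os08g0237000), the member with the most reads, fell from 12556, 12335 and 12754 to 2978, 2279 and 2972 (log2 fold change -2.20, SE 0.11, limma adjusted p = 3.02e-10). Cellulose synthases had 10 lowered and 2 raised of 27, with a median of -0.81. The mannan synthase-type CSLA4 (Os03g0169500) fell from 331, 301 and 281 to 43.5, 60.5 and 63.9, and the CesA1-like gene with the most reads (Os05g0176100) had 18796, 17931 and 18333 against 10670, 10415 and 10361, short of the threshold at -0.81.

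Lipid transfer proteins had 12 lowered and 7 raised of 32, and extensins, arabinogalactan and other proline-rich proteins 12 lowered and 6 raised of 56. The summed level of the latter list nevertheless went up, from 86209 to 102244 at 0 mM NaCl to 173649 to 191076 at 150 mM NaCl, and Os07g0418600 and Os07g0418700 together account for most of that rise. Lignin and phenylpropanoid genes had 11 raised and 10 lowered of 58. Phenylalanine ammonia-lyase (Os02g0626100), the entry to the pathway, stood at 104331, 103061 and 92588 against 91187, 105807 and 99330 with overlapping groups (log2 fold change -0.02), while a dirigent-like gene (Os11g0179700) fell from 678, 863 and 875 to 29.0, 25.4 and 31.5 and a laccase (Os12g0259800) from 1041, 983 and 1120 to 93.8, 63.5 and 62.0. Casparian strip and related UPF0497 membrane proteins had 7 raised and 6 lowered of 32.

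In the lists of cell division and the cytoskeleton, more members were lowered than raised. Core histones had 15 lowered of 43, with a median log2 fold change of -0.88. The lowered count was 9 without 0 mM NaCl replicate 1 and 7 without 150 mM NaCl replicate 1, and 21 at most with another library left out. None was raised by limma, edgeR, DESeq2 or limma-voom, with 1 above 0 at an unadjusted limma p under 0.05, and none passed the limma test of the fold change against a doubling in either direction. A histone H2A gene (Os03g0279200) stood at 5606, 4581 and 4239 at 0 mM NaCl and at 1568, 1676 and 2519 at 150 mM NaCl (log2 fold change -1.35, SE 0.17). Cyclins, cyclin-dependent kinases, kinesins and MCM proteins had 17 lowered of 90, but 9 without 150 mM NaCl replicate 2. None was raised by limma, edgeR, DESeq2 or limma-voom, with 9 above 0 at an unadjusted limma p under 0.05, and 1 was raised without 0 mM NaCl replicate 1 or 3. In 1 of these, a kinesin gene (Os12g0590500), that library held 320 against 550 and 553 in the other salt-treated libraries and 1198, 1237 and 1139 in the untreated ones. Tubulins had 7 lowered and 1 raised of 21. TUB8 (Os03g0661300) fell from 4144, 3853 and 3876 to 809, 712 and 831 (log2 fold change -2.34, SE 0.08), and a beta-2 tubulin (Os01g0805900) from 9768, 9679 and 10258 to 2037, 1756 and 2674.

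Cytosolic ribosomal proteins shifted as a group by less than the threshold. Of 150 tested 139 had a log2 fold change below 0, beside 12451 of all 24922 genes, and 1 was lowered, with a median of -0.38. None was raised by limma, edgeR, DESeq2 or limma-voom, with 6 above 0 at an unadjusted limma p under 0.05. The summed level went from 474148 to 516372 down to 369803 to 425170. The lowered member, a 40S S10-1-like gene (Os01g0962600), had a log2 fold change of -1.03 and lost its call without replicate 1 of either group, where it lay at -0.97 without the 0 mM NaCl library. No ribosomal protein was lowered without either of these libraries, and 2 were without 0 mM NaCl replicate 2 or 150 mM NaCl replicate 3. OsACTIN1 (Os03g0718100), often used as a reference gene, fell from 1437, 1380 and 1321 to 569, 540 and 638 (log2 fold change -1.25, SE 0.09, limma adjusted p = 1.24e-09).

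**Figure D5:**
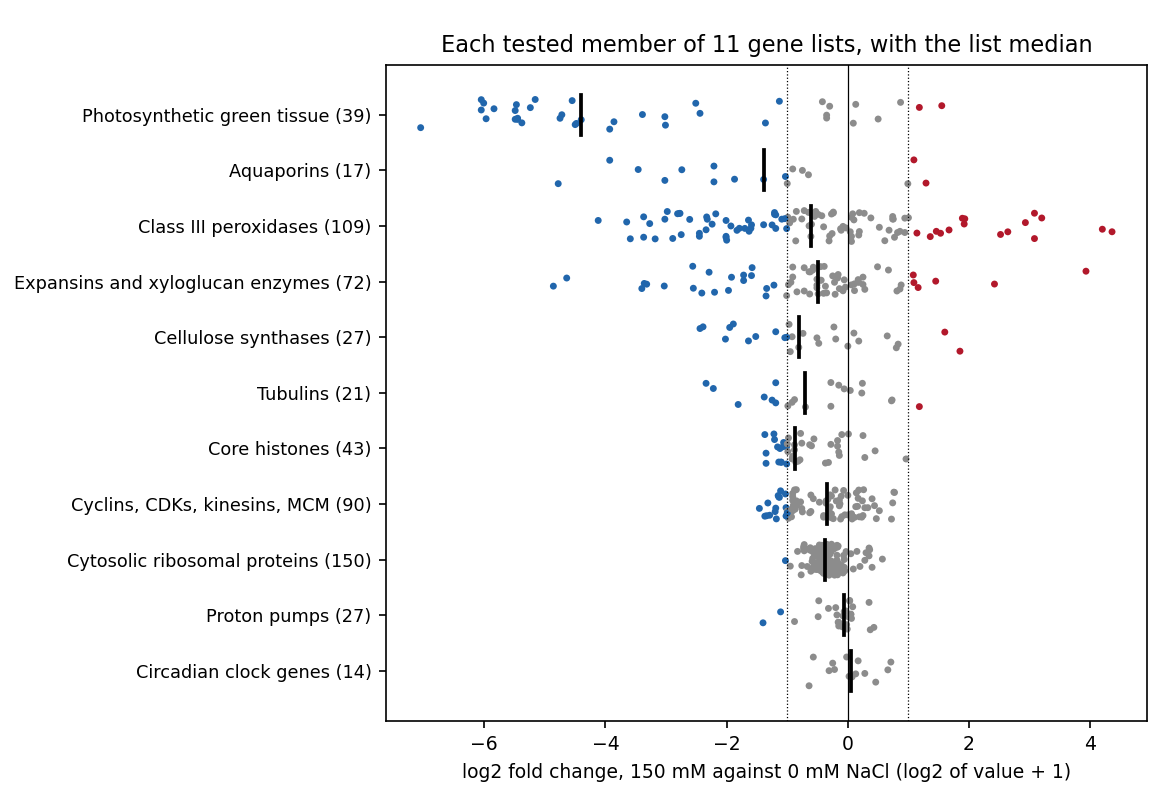
Log2 fold change (150 mM against 0 mM NaCl, on log2 of the value plus 1) of each tested member of 11 gene lists in TNG67 roots, with raised members red, lowered members blue, others grey, and a black bar at the list median. Photosynthetic green-tissue genes (median -4.40) and aquaporins (median -1.39) are spread far to the left, histones (-0.88) and ribosomal proteins (-0.38) lie in a narrow band left of 0, and clock genes and proton pumps are centred near 0.

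Genes of energy and oxidative metabolism differed by list. Fermentation and hypoxia genes had 10 lowered (22.7%) and 3 raised of 44, and 6 lowered among genes with a mean of at least 20. The non-symbiotic haemoglobin NSHB1 (Os03g0233900), which scavenges nitric oxide under low oxygen, fell from 5914, 5581 and 5806 to 1006, 1152 and 1250 (log2 fold change -2.35, SE 0.10), and an alcohol dehydrogenase (Os03g0189600) rose from 242, 147 and 365 to 796, 1271 and 916. Antioxidant enzymes had 5 raised (10.4%) and 3 lowered (6.25%) of 48, close to the 9.53% and 9.75% of all genes. Catalase A (Os02g0115700) rose from 2401, 2346 and 3518 to 8880, 8160 and 9062 (log2 fold change 1.68, SE 0.13), and an alternative oxidase gene of cyanide-resistant respiration (Os04g0600300) from 41.4, 49.8 and 53.6 to 258, 230 and 249. None of 8 NADPH oxidases, the source of apoplastic superoxide, was called by limma, edgeR, DESeq2 or limma-voom, with 2 above 0 and 3 below 0 at an unadjusted limma p under 0.05. The one with the most reads, Os09g0438000, had 1665, 1782 and 1542 against 2681, 2757 and 2496 (log2 fold change 0.67, limma adjusted p = 1.86e-07). It missed the call on fold size. Sucrose and starch genes had 7 raised (12.3%) and 8 lowered (14.0%) of 57, not far from those shares, and 5 lowered without 150 mM NaCl replicate 2. The sucrose exporter SWEET13 (Os12g0476200) rose from 167, 206 and 171 to 1002, 855 and 1023, and sucrose synthase SUS1 (Os03g0401300) went from 9780, 10633 and 9077 to 5141, 4311 and 4849, with a log2 fold change of -1.04 that was -0.99 without 0 mM NaCl replicate 2 and -0.97 without 150 mM NaCl replicate 2.

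Of the other genes that the study names, WRKY76 and the SPX-MFS gene Os04g0573000 rose, as given above, and OsACTIN1 and OsAO3 fell. OsERF106MZ itself (Os08g0537900) stood at 958, 921 and 749 at 0 mM NaCl and at 776, 667 and 727 at 150 mM NaCl. The groups overlapped, and the log2 fold change was -0.27 (limma adjusted p = 0.012), short of the fold threshold. The study describes this gene as induced by salinity, citing its earlier work, and no rise was seen in these libraries at 24 h. OsNPC3 (Os11g0593000), a non-specific phospholipase C, fell from 536, 531 and 484 to 134, 204 and 148 (log2 fold change -1.69, SE 0.19, limma adjusted p = 1.2e-06). The R2R3-MYB gene Os12g0572000 had 131, 151 and 148 against 139, 122 and 148 (log2 fold change -0.07).

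The NaCl response of each gene was also tested against that of OE1 in the same fit. It differed for 2833 genes (11.4% of those tested) at a limma interaction adjusted p under 0.05, and 1321 of these were called in TNG67. The count ranged from 1765 to 3432 when each of the 12 libraries was left out in turn, with the lowest count without TNG67 0 mM NaCl replicate 1 and 1805 without OE1 0 mM NaCl replicate 1. Catalase A was among them, with a log2 fold change of 1.68 in TNG67 and 2.94 in OE1 (limma interaction adjusted p = 0.00114).

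Genes listed at a single NaCl level mostly had few reads, with a median of the mean normalized count of 7.95 for the 658 listed at 0 mM NaCl only and 7.54 for the 1031 listed at 150 mM NaCl only. Beside CPS2, a short-chain dehydrogenase-like gene (Os07g0663700) with 891, 1238 and 914 normalized counts had the most reads at 150 mM NaCl alone, and 32 such genes had a mean of at least 100. Some were cytochrome P450 genes with IDs close to KSL7 and CPS2, among them Os02g0571900 with 325, 444 and 337 and Os02g0570700 with 192, 354 and 213. At 0 mM NaCl alone 9 genes had a mean of at least 100. They included a KUP-related potassium transporter (Os08g0466200) with 99.6, 93.3 and 112, a SWEET-type sugar transporter (Os05g0214300) with 123, 131 and 202, and a photosystem II PsbX gene (Os03g0343900) with 160, 121 and 192.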

How the data were processed

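Paired-end mRNA libraries (KAPA mRNA HyperPrep kit, Illumina NovaSeq) came from TNG67 and OE1 roots at 0 or 150 mM NaCl for 24 h, in 3 biological replicates each. Per the submitters' processing notes, base calls came from CASAVA, reads were trimmed with Trimmomatic 0.38 and aligned to IRGSP-1.0 with HISAT2 2.1.0. The counting tool, its strand setting and the filter that decided which genes a table lists are not given in the sources used here. The deposited signal values are read counts that the authors divided by a size factor for each library. All values times that factor came out as whole reads (tolerance 0.001), and median-ratio scaling of the 12 libraries together gave these factors back to within 0.0916%, so both NaCl tables share 1 scale. The deposited group means were not used for tests.

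Tables were joined on gene ID. Values were log2-transformed after adding 1 and fitted with limma 3.58.1 (R 4.3.3, trend and robust) over 12 libraries as 4 groups, two-sided, with Benjamini-Hochberg adjustment over 24922 genes. Fold changes are on the log2(value + 1) scale, which understates changes of genes with few reads. Standard errors (SE) come from that fit. Alternatives were edgeR 4.0.16, DESeq2 1.42.0 and limma-voom on recovered reads, limma treat, other scalings, a pseudocount of 0.1, a mean of at least 20, the 6 TNG67 libraries alone, no fold threshold, a replicate block and leaving out each library. The fit was tested on simulated data.

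Lists were matched by words in the descriptions. Genes were named by rule: the 10 largest rises and 10 largest falls (mean of at least 100 in the higher group, groups apart, informative description), the 2 largest called changes and the member with the most reads in each list, genes the study names, and genes of the HKT, Lsi, P5CS, RAB16, RAB21, salT and similar names. The rule gave 174 genes, and the ones not named in the text are counted within their lists or the total. Exceptions are said to be chosen after their values were seen, which also holds for Os05g0341600 and genes listed at 1 NaCl level. The members and lists were chosen with earlier results of these data known. Symbols came from RefSeq (ASM3414082v1, names only), and KSL10, AKT1 and LEA3 from general knowledge.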

Additional observations from a re-analysis of the deposited data

Results flagged for a closer look

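For 51 of the 123 tested genes named in the report, the NaCl response of OE1 differed from that of TNG67 at a limma interaction adjusted p under 0.05, beside 11.4% of all genes tested. The values given here are OE1 minus TNG67 differences in log2 fold change, with n = 3 libraries in each of the 4 groups. The change in OE1 was smaller or opposite for 47 of these genes and larger for 4. The named genes were picked for large changes in TNG67, so no direction is read from these counts. Some passed narrowly, with limma interaction adjusted p = 0.0495 for TPP3, 0.0481 for Os05g0231700 and 0.047 for Os01g0627800. For Os04g0104900 it was 0.000208.

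Among the largest rises in TNG67, the difference was -1.88 for the sugar transporter-like Os03g0197100, -2.36 for the oxygenase Os04g0581100, -0.96 for the CYP72A5-like Os01g0627800, -2.09 for Os11g0687100 and -3.15 for the methyltransferase-like Os04g0104900. Among the largest falls it was 1.72 for the CLE-like Os06g0532500, 3.71 for RBCS1 (Os12g0291100), 1.54 for the IAA-amino acid hydrolase Os03g0836800, 1.78 for Os01g0355250, 3.01 for ferredoxin (Os08g0104600), 1.79 for CAB2R (Os01g0600900) and 2.48 for the RCc3-like Os04g0554600. The sign of the log2 fold change was the same in both genotypes for each of these. In OE1, Os11g0687100 stood at 0, 0 and 1.04 at 0 mM NaCl and at 34.0, 73.3 and 48.9 at 150 mM NaCl. With untreated values this low, adding 1 before the log2 understates the rise in OE1, so the difference of -2.09 is not firm.

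Of the ABA and osmoprotection genes, the difference was -0.39 for zeaxanthin epoxidase (Os04g0448900), -1.31 for the protein phosphatase 2C Os06g0698300 and -1.14 for TPP3 (Os07g0624600). For OsAO3 (Os07g0281700) it was 2.21, since the log2 fold change was -1.59 in TNG67 and 0.62 in OE1, at a mean of 19.8 normalized counts over the 12 libraries. Of the transport and nutrient genes, it was -3.57 for the potassium transporter Os09g0448200, which rose by 5.20 in TNG67 and 1.63 in OE1, and 0.71 for the vacuolar pyrophosphatase Os06g0178900. It was 1.42 for the nitrate transporter Os02g0112600, 1.21 for GS2 (Os04g0659100), 0.82 for the cytosolic glutamine synthetase Os03g0223400, -1.12 for the ZIP1-like Os07g0232800 -1.37 for SWEET13 (Os12g0476200) and -0.46 for the tonoplast aquaporin Os05g0231700.

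Of the hormone and transcription factor genes, the difference was 1.02 for PIN5A (Os01g0919800), 1.10 for OsRR2 (Os02g0557800), -1.82 for AOS2 (Os03g0225900), -0.41 for JAZ7 (Os07g0615200), -0.44 for the WRKY gene Os05g0322900, -0.59 for TGAL6 (Os04g0637000), -0.78 for WOX11 (Os07g0684900), -0.66 for WOX6 (Os03g0325600), -0.77 for the A-2a heat shock factor Os03g0745000 and -1.26 for HSFA6B (Os01g0571300). Of the cell wall genes, it was 0.62 for XTH8 (Os08g0237000), 0.41 for the CesA1-like Os05g0176100, -1.04 for the dirigent-like Os11g0179700 and 1.63 for the laccase Os12g0259800.

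Of the defence and detoxification genes, the difference was -2.06 for the P450 Os02g0569900, 1.28 for the sesquiterpene cyclase-like Os02g0458100 (log2 fold change -1.01 in TNG67 and 0.26 in OE1), -0.62 for the PR-1a-like Os10g0191300, -1.13 for germin-like protein 8-3 (Os08g0189200), -1.64 and -0.62 for the glutathione S-transferases Os01g0692100 and Os01g0371500, and -1.17 for the glycosyltransferase Os09g0518200. Of the remaining genes, it was 1.26 for catalase A (Os02g0115700), -0.38 for the NADPH oxidase Os09g0438000, 0.43 for TUB8 (Os03g0661300), 0.70 for the beta-2 tubulin Os01g0805900, 0.50 for the ribosomal protein gene Os01g0962600 and 0.50 for OsACTIN1 (Os03g0718100).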

How the results depend on the processing

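The counts of raised and lowered genes were 2354 to 2405 and 2399 to 2513 under edgeR, DESeq2 and limma-voom on recovered reads, and none of the alternatives run reversed a called gene. Tested against a doubling (limma treat), 1212 genes were raised and 968 lowered, and without the fold threshold 6819 and 6770. By construction the first asks for more and the second for less than the main rule. Leaving out each TNG67 library in turn gave 2327 to 2486 raised and 2277 to 2600 lowered, with 47.6% to 50.5% of calls raised. Scaling by library size alone shifted the median of all genes by -0.037 on the log2 scale and gave 2278 raised and 2563 lowered. The number of genes whose response differed from OE1 ranged from 1765 (without TNG67 0 mM NaCl replicate 1) to 3432 (without TNG67 150 mM NaCl replicate 3). The cause was not tested. Of 2086 values of the named genes under alternatives 2017 kept their direction and side of the threshold, 56 lost the call (22 of them under treat), 13 gained it (12 without the fold threshold) and none reversed. With the replicate number as a block, 2370 genes were raised and 2424 lowered (49.4% raised) and 2311 differed from OE1, while same-numbered TNG67 libraries deviated together with correlations of -0.069, -0.015 and -0.089, so the numbers were not taken as pairs. Of the called genes, 595 had a mean under 20 normalized counts, where few reads limit precision.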

Other observations

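Gene families that stood outside the lists also moved. Among 88 groups of at least 15 tested genes that share 1 exact description, those with VQ domains, which are partners of WRKY factors, had 10 raised and 2 lowered of 21 (47.6% raised, median log2 fold change 0.92). AAA-type ATPases had 9 raised of 22, protein kinase catalytic domain genes 24 raised and 3 lowered of 61, and MatE transporters, which export organic compounds, 8 raised and 3 lowered of 22. Heavy metal transport and detoxification domain proteins had 12 raised and 5 lowered of 40. In the other direction, FAS1 domain proteins, a class of cell wall and surface proteins, had 7 lowered of 15 (median -0.95). BTB domain proteins had 5 lowered of 17 and IQ calmodulin-binding proteins 7 lowered and 1 raised of 26. Cupredoxin domain proteins moved both ways, with 9 lowered and 6 raised of 29 and a median of 0.13. The background is 9.53% raised and 9.75% lowered. These groups were chosen after their values were seen and carry no test.

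Called genes also lay beside each other. In the order of 24839 gene IDs there were 46 runs of 4 or more neighbouring tested genes called in 1 direction, 34 of them raised and 12 lowered, with 213 genes in all. These are 213 of 4804 called genes, and no expected number of runs was computed. Genes that were not tested did not break a run. One of 8 lowered genes ran from Os08g0551900 to Os08g0553300, with log2 fold changes of -2.91 to -1.01. A run of 6 raised genes went from Os10g0569400 to Os10g0570200 (1.27 to 4.56) and another from Os10g0450400 to Os10g0452300 (1.63 to 4.93). The momilactone genes from Os04g0178300 to Os04g0179700 formed a run of 5 (3.85 to 7.33). Neighbouring copies of like sequence and overlapping gene models can share reads, and whether the counting used strand is not given in the sources used here.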
